A study of Tegula funebralis with 16 samples.

Results

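Snails of the species Chlorostoma (Tegula) funebralis from Pigeon Point were compared with snails from Slide Ranch, both on the northern California coast. The comparison used the 8 northern libraries among the 16 of the series, chosen by the site named in the labels and not by any measured value. RNA of whole ground animals was sequenced, and the deposited table holds 15903 assembled contigs, that is transcripts or parts of them. Each site had 2 libraries of control animals held in air at 15 °C for 5.5 hours and 2 libraries of animals heated in air from 15 °C to 34 °C, in steps of 3 °C, over that same time. The 8 remaining libraries, of the southern sites Aliso Beach and La Jolla, entered no test and are given only to show where a contig stood elsewhere. The labels name no strain, sex, age or date, and do not say how many animals a library holds, so the p-values measure only the spread between these libraries.

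C. funebralis is an intertidal snail that grazes on algae and spawns into the sea, where its larvae drift for a short time before they settle. Snails of one species from different shores can differ in transcript level through inherited sequence differences, through the local environment, or through sex, size, food and reproductive state. A contig can also differ in its count because its sequence differs between animals, since reads of a diverged allele or of a missing gene copy are not assigned to it. All 15903 contig identifiers begin with SR, the letters that the sample titles use for Slide Ranch, and the source of the assembly is not given in the sources used here. Sequence differences and differences in RNA level cannot be told apart in these counts.

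The recovered reads ran from 17594009 to 23443519 per northern library, and each library detected between 15200 and 15654 contigs. Pigeon Point control 1 and Pigeon Point heat 1 stood apart from the other 6. The contig SR_contig_83 held 16.6% of reads in the one and 17.3% in the other, while the 6 remaining libraries gave it 2.55% to 6.80%. The Wilson 95% intervals, which cover counting error only, ran from 16.59% to 16.63% and from 17.30% to 17.34%. The first principal component held 52.7% of the variance and placed both above 0, with Pigeon Point heat 1 farthest out at 126, while the other 6 lay between -47.2 and -9.86. The first and second Pigeon Point libraries differed by at least 1 on the log2 scale in 30.2% of tested contigs, against 1.82% for the first and second Slide Ranch libraries. Results are therefore given with and without the first pair of Pigeon Point libraries.

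Pigeon Point and Slide Ranch differed in a small set of contigs, some of them by a very large amount. A transcription cofactor contig was at 0 reads in every Slide Ranch library, a collagen contig was almost absent at Pigeon Point, and a DNA replication factor, a digestive enzyme, an immune receptor and a calcium sensor differed by 1.67 to 2.84 on the log2 scale. With treatment as a term, 53 of 14468 tested contigs were called (limma, Benjamini-Hochberg adjusted p under 0.05), which is 0.366% of those tested. Of these, 35 were higher at Pigeon Point (0.242%) and 18 higher at Slide Ranch (0.124%). An unadjusted p under 0.05 was reached by 1527 contigs. On the recovered reads edgeR called 51 (0.353%), 34 higher at Pigeon Point (0.235%) and 17 at Slide Ranch (0.118%). DESeq2 called 448 of 13907 (3.22%), 314 higher at Pigeon Point (2.26%) and 134 at Slide Ranch (0.964%). In all 53, the 4 libraries of one site lay above the 4 of the other, which was so for 6.49% of tested contigs, 3.44% with Pigeon Point above and 3.06% with Slide Ranch above. Without overlap the difference must have the same direction in control and in heated animals, so that direction adds no further test. All 53 were called with the same sign in the 6 libraries without Pigeon Point control 1 and heat 1. Those 6 are part of the libraries that made the calls, so they are not independent of them. Of the 53, 32 (60.4%) carry no gene name, against 37.3% of tested contigs.

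**Figure D1:**
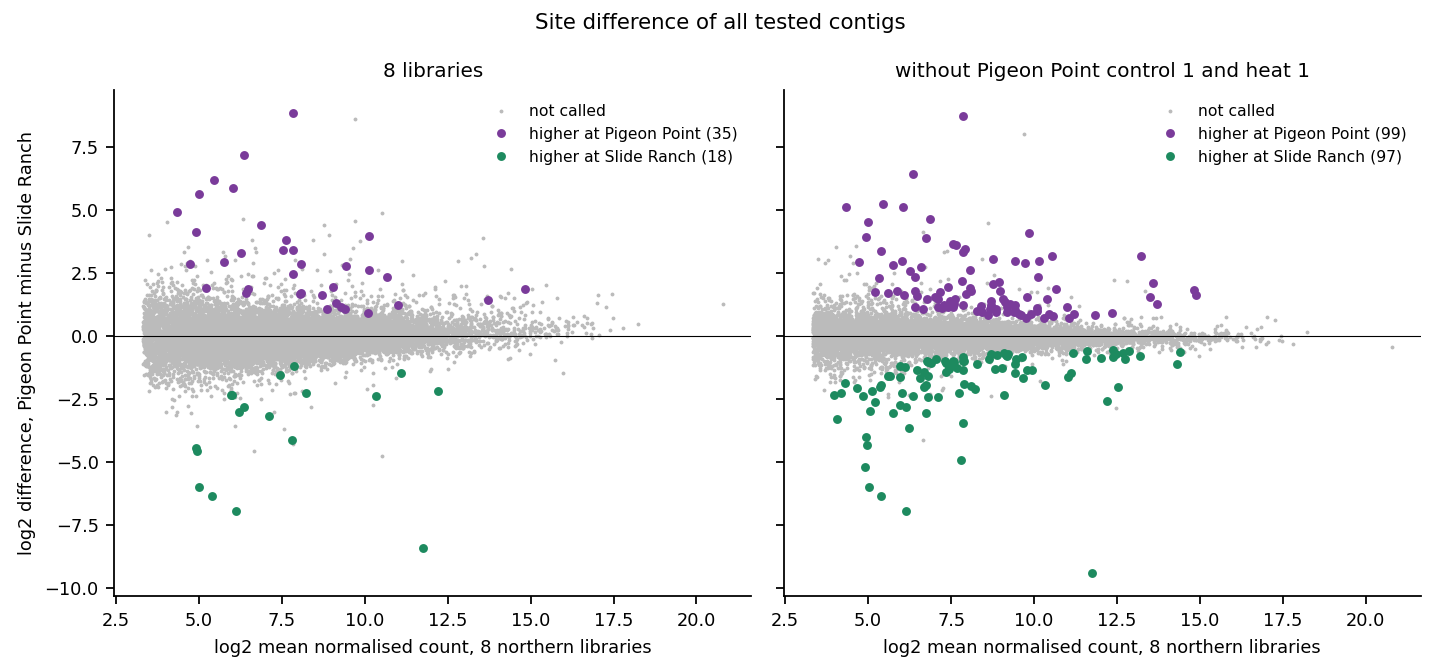
Each point is a tested contig, with the log2 of its mean normalised count over the 8 northern libraries on the horizontal axis and its log2 difference, Pigeon Point minus Slide Ranch, on the vertical axis. Over 8 libraries 35 contigs were higher at Pigeon Point and 18 at Slide Ranch (left), and without Pigeon Point control 1 and heat 1 there were 99 and 97 (right).

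The number of calls shifted when single libraries were left out, whichever site they came from. With a Slide Ranch library left out it fell to 14 (control 1), 16 (control 2), 20 (heat 1) or 18 (heat 2), and with a Pigeon Point library left out to 28 (control 1) or 34 (heat 2). Leaving out Pigeon Point control 2 gave 64 and leaving out Pigeon Point heat 1 gave 52. Of the 53 contigs, 13 were called whichever of the 8 libraries was left out, among them the LIM domain-binding protein and collagen contigs described next, and no contig changed its direction under any alternative.

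Among regulators of transcription, LIM domain-binding protein 2-like (SR_contig_1832) had the clearest difference. This protein joins LIM-domain transcription factors into complexes that act on gene enhancers. Its normalised counts were 0, 0, 0 and 0 at Slide Ranch, in the order control 1, control 2, heat 1 and heat 2, and 543, 502, 454 and 343 at Pigeon Point in the same order. With a floor of 3 reads over the 4 Slide Ranch libraries, the level was at least 708-fold higher at Pigeon Point (limma adjusted p = 1.58e-05). The southern libraries also held it, at 350.2 to 428 at Aliso Beach and 338 to 689 at La Jolla, so Slide Ranch was the only one of the 4 sites without reads. Both other tested contigs with a LIM domain-binding name, SR_contig_12318 and SR_contig_13_C3.2, are named protein 3 and were matched by name alone. They had log2 differences of -0.56 and -0.21 and were not called. Whether they are relatives of SR_contig_1832 was not tested.

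Collagen alpha-6 (SR_contig_234), a structural protein of the extracellular matrix, showed the opposite pattern at a high level. Slide Ranch had 5573, 5116, 8805 and 8064, and Pigeon Point had 24.7, 7.51, 56.9 and 10.1. Mean levels were 6889.7 ± 1819 and 24.8 ± 22.7 (SD, n = 4 each), 278-fold higher at Slide Ranch (log2 difference -8.44 ± 0.51, SE; limma adjusted p = 7.44e-04). Without Pigeon Point control 1 and heat 1 the difference was -9.43 ± 0.13. Aliso Beach held 4744 to 7803 and La Jolla 4409.6 to 18459.7, so Pigeon Point stood alone. The 15 other tested contigs named collagen alpha-6 had log2 differences between -0.98 and 0.76, and the lowest adjusted p among them was 0.433.

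**Figure D2:**
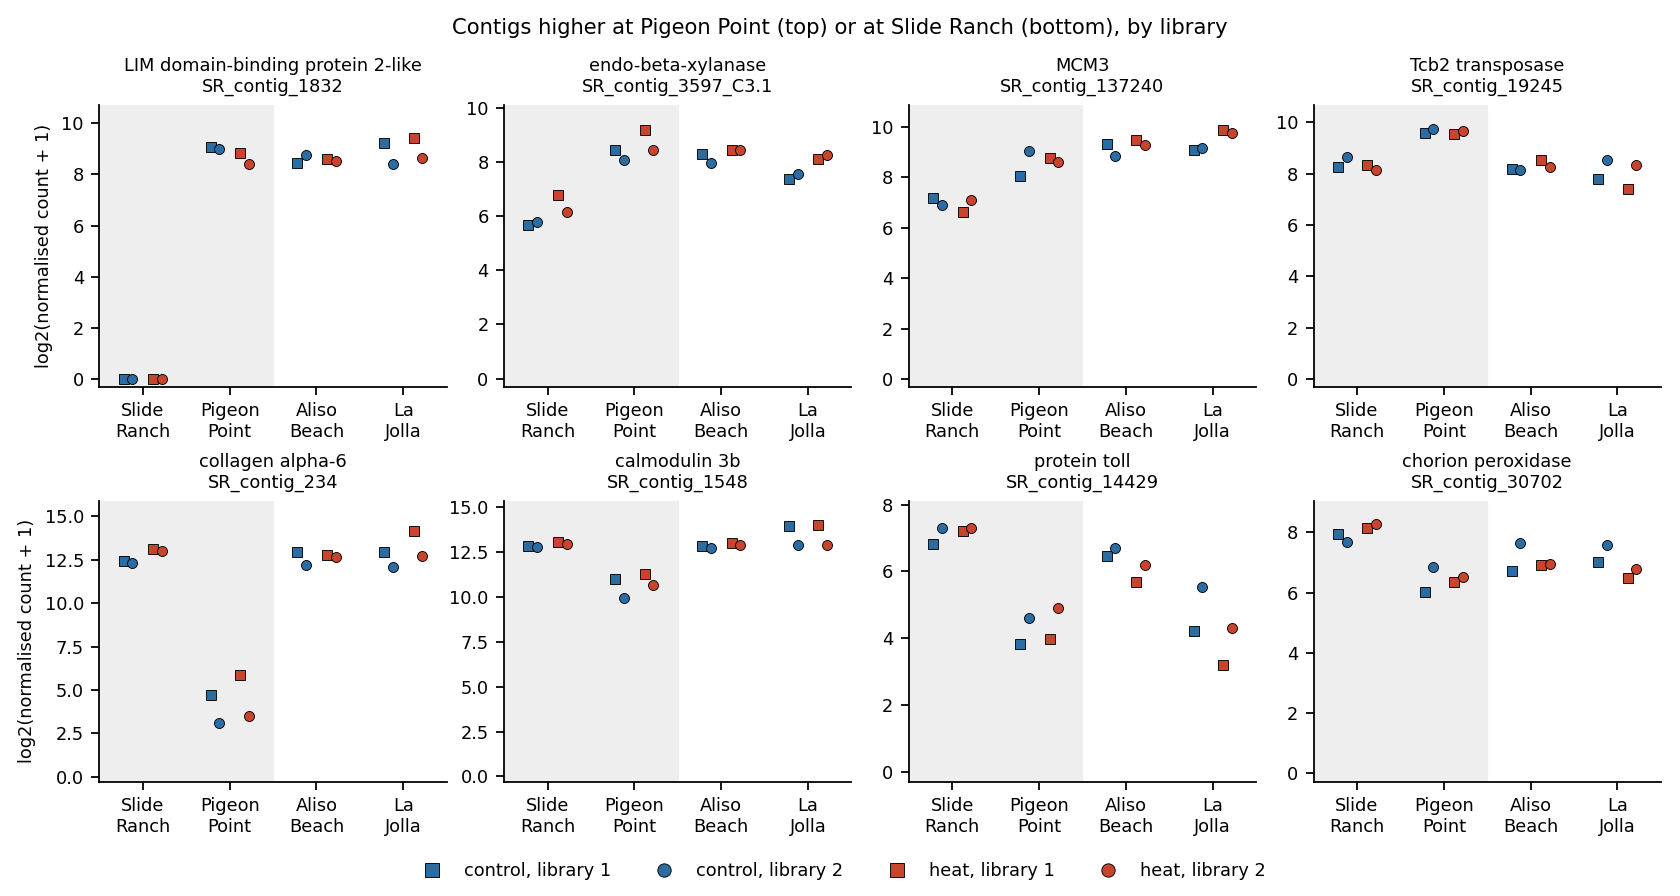
Each panel plots log2(normalised count + 1) of 1 contig in all 16 libraries by site, with control libraries in blue, heated libraries in red, squares for library 1 and circles for library 2, and the northern sites shaded. In the upper row all 4 Pigeon Point libraries lie above all 4 of Slide Ranch, and in the lower row all 4 of Slide Ranch lie above.

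Reads were absent or nearly absent at one site for 9 called contigs, counted as at most 3 reads in each of its libraries against a mean of at least 50 at the other site. Of these, 5 were silent at Slide Ranch, 4 of them with 0 reads, and 4 were silent at Pigeon Point, 3 of them with 0 reads. Beside LIM domain-binding protein 2-like, the named one is an epididymal secretory protein E1 contig (SR_contig_2551_C3.1); the mammalian protein of that name, NPC2, binds cholesterol in lysosomes. It had 0 reads at Slide Ranch and 87.1, 23.2, 127 and 20.2 at Pigeon Point, at least 98.9-fold higher (limma adjusted p = 0.0173, edgeR adjusted p = 0.125). The first pair of Pigeon Point libraries was well above the second pair there, and the call was lost without any 1 of the Slide Ranch libraries or Pigeon Point control 1, with an adjusted p of up to 0.125 over all alternatives.

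The unnamed silent contigs showed how the southern sites can fall on either side. SR_contig_6422_C3.1 had 0 reads at Pigeon Point and 60.9, 95.2, 254 and 150.0 at Slide Ranch, at least 150.0-fold higher (adjusted p = 9.05e-04 in limma), and 53.8 to 186 in the southern libraries. SR_contig_2042_C3.1 also had 0 at Pigeon Point, with 85.3, 101, 86.8 and 60.4 at Slide Ranch and 28.7 to 97.9 in the south. SR_contig_8933_C3.1, chosen after its values were seen, had 89.6, 48.0, 58.5 and 62.4 at Slide Ranch and 0 in every library of the other 3 sites. At Slide Ranch, SR_contig_1595_C3.2 had 0 reads, against 280.3, 94.9, 211 and 73.6 at Pigeon Point and 27.3 to 87.6 in the south (at least 254-fold higher at Pigeon Point). SR_contig_206766 had at most 1.95 at Slide Ranch and 176, 47.1, 206 and 93.8 at Pigeon Point. Over the whole table, contigs at 0 in all libraries of one site and above 0 at the other numbered 43 for Slide Ranch and 30 for Pigeon Point, of which 4 and 3 are among the 9.

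In the digestive list, which holds 200 tested contigs of enzymes that break down food, 1 was called higher at Pigeon Point and 0 higher at Slide Ranch. Over all tested contigs these shares were 0.242% and 0.124%. The list's median log2 difference was 0.066 against -0.015 over all tested contigs. The called one was an endo-beta-xylanase (SR_contig_3597_C3.1), of an enzyme class that cuts the xylan chains of plant and algal cell walls. Slide Ranch had 50.5, 53.9, 109 and 70.2 and Pigeon Point had 350.0, 272, 573 and 346. Every Pigeon Point library lay above every Slide Ranch one (log2 difference 2.44 ± 0.25, limma adjusted p = 0.00563), and without Slide Ranch control 1 the adjusted p was 0.0504. The southern libraries had 164 to 350.0. The 5 other xylanase contigs had log2 differences of -0.33 to 0.75. One of them (SR_contig_36_C3.2), chosen after its values were seen, was called lower at Pigeon Point in the 6 libraries. It had 2076 and 2370.2 there against 3238, 3157, 3655 and 3513 (log2 difference -0.61 ± 0.11, adjusted p = 0.0344 in limma). Pigeon Point control 1 and heat 1 had 2607 and 4109, the latter above every Slide Ranch library. Over the 8 libraries it was not called (-0.33 ± 0.20, adjusted p = 0.435 in limma). A call in the other direction was thus made in the 6 libraries only.

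Antistasin-like isoform x2 (SR_contig_2003_C3.1) is named after a protease inhibitor first known from leeches. It had 393, 544, 622 and 530.0 at Slide Ranch and 2967, 1855, 4286 and 1847 at Pigeon Point (log2 difference 2.32 ± 0.29, adjusted p = 0.0151 in limma), while Aliso Beach lay at 520.1 to 699.6 and La Jolla at 1564 to 9808. The 4 other tested contigs of this name had log2 differences of -0.38 to 1.64, with adjusted p of 0.433 or more. The more abundant epididymal secretory protein E1 contig (SR_contig_414_C3.1) had 194, 188, 222 and 244 at Slide Ranch and 1006, 438, 1203 and 767 at Pigeon Point (1.92 ± 0.28, adjusted p = 0.0326 in limma). Both contigs of this name in the table were thus higher at Pigeon Point. In both this contig and the antistasin one, the first pair of Pigeon Point libraries lay above the second pair, and without the first pair the log2 differences were 1.84 ± 0.17 and 1.46 ± 0.17, for antistasin and this contig in turn.

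For protein turnover, ubiquitin C variant 4 (SR_contig_19_C3.1), a precursor of the tag that marks proteins for the proteasome, had 7064, 6416, 7720.1 and 7960.2 at Slide Ranch and 19311, 14673, 24879 and 20032 at Pigeon Point. The log2 difference was 1.42 ± 0.16 (adjusted p = 0.012 in limma), and the sites did not overlap. A poly-ubiquitin contig (SR_contig_33_C3.1), chosen after its values were seen, ran the other way, with 24776, 22128, 27708 and 30784 at Slide Ranch and 12082, 9307, 20175 and 15624 at Pigeon Point (-0.93 ± 0.19, adjusted p = 0.124, and -1.12 ± 0.16, adjusted p = 0.0103, in the 6 libraries, both limma). Ubiquitin genes are near-identical repeats, so reads may have been shared or split between these contigs, which was not tested. In the ubiquitin and TRIM list of 262 contigs, 1 was called higher at Pigeon Point and 0 lower in the 8 libraries, beside 0.242% and 0.124% of all tested contigs. In the 6 libraries 1 was called higher and 3 lower, beside 0.684% and 0.67%.

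Among cell death genes, caspase 9 (SR_contig_6692), the protease that starts the mitochondrial pathway of apoptosis in mammals, was tightly grouped. Slide Ranch had 744, 786, 729.8 and 782, and Pigeon Point had 1442, 1498, 1324 and 1461. The log2 difference was small, 0.91 ± 0.13, but the lowest Pigeon Point library was far above the highest of Slide Ranch (adjusted p = 0.0332 in limma). Aliso Beach, at 636 to 869.5, overlapped Slide Ranch, and La Jolla lay between, at 980.4 to 1310.3. It was 1 of 89 contigs of the cell death list to be called, beside 0.242% of all tested contigs called higher at Pigeon Point. A Tcb2 transposase contig (SR_contig_19245), from a family of Tc1-like mobile DNA elements, had 305, 400.1, 327 and 282 at Slide Ranch and 759, 860.0, 742 and 803 at Pigeon Point (1.28 ± 0.16, adjusted p = 0.0176 in limma). The southern libraries, at 168 to 371, lay with Slide Ranch, so for this contig Pigeon Point was the site apart. The 16 other tested contigs of this name had log2 differences of -0.80 to 1.07, with adjusted p of 0.222 or more in limma. Of all 17, 7 lay above 0 and 10 below. In the transposable element list of 110 contigs, 1 was called higher at Pigeon Point and 0 lower. Over all tested contigs these shares were 0.242% and 0.124%.

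A histone contig, named in the table after a nucleosome crystal structure (SR_contig_56446), had 30.5, 8.12, 17.7 and 52.6 at Slide Ranch and 195, 279.8, 735 and 271 at Pigeon Point (3.81 ± 0.52, adjusted p = 0.0244 in limma). Nucleoporin Nup37 (SR_contig_17914_C3.1), part of the ring of the nuclear pore, had 303, 248, 324 and 312 against 558, 506, 724 and 729 (1.07 ± 0.16, adjusted p = 0.0328 in limma). The southern libraries exceeded both northern sites for Nup37, at 854 to 1381. Williams-Beuren syndrome chromosomal region 27 (SR_contig_9590_C3.1), named after a human locus, had 418, 421, 415 and 494 at Slide Ranch and 909, 738, 1023 and 952 at Pigeon Point (1.04 ± 0.15, adjusted p = 0.0335 in limma). With MCM3, described next, these complete the 12 contigs higher at Pigeon Point whose name is informative. Of the called contigs with a name, 4 carry only the name of a hypothetical or unspecified protein, namely SR_contig_614_C3.1 and SR_contig_3901, higher at Pigeon Point, and SR_contig_4513 and SR_contig_29096, higher at Slide Ranch.

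The DNA replication factor MCM3 (SR_contig_137240) is a subunit of the ring-shaped helicase that opens DNA before a cell divides. Slide Ranch had 145, 119, 98.3 and 137 and Pigeon Point had 266, 534, 435 and 394, with no overlap. The log2 difference was 1.67 ± 0.26 (adjusted p = 0.0426 in limma), and 1.88 ± 0.20 (adjusted p = 0.00223) without Pigeon Point control 1 and heat 1. All 8 southern libraries, at 456 to 945, were above every Slide Ranch library. Its call in the 8 libraries was lost without any 1 library except Pigeon Point control 1, with an adjusted p of up to 0.227.

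In the whole list of DNA replication and cell cycle genes, MCM3 was the single call among 100 tested contigs in the 8 libraries. Over all tested contigs 0.242% were called higher at Pigeon Point there. The list's median log2 difference was 0.15, and 60 of 100 contigs lay above 0, against 7047 of 14468 over all tested contigs. In the 6 libraries 8 were called higher at Pigeon Point and 0 lower, beside 0.684% and 0.67% of all tested contigs, and 79 of 100 lay above 0, against 49.5% of all contigs. The median was 0.16 there against -0.0032 over all tested contigs. This list moved the opposite way between the Pigeon Point pairs, since the first pair lay below the second by a median of 0.29 on the log2 scale. The count of 8 became 0 when Pigeon Point control 2 or Pigeon Point heat 2 was left out, 5 when Slide Ranch control 2 was, and 4 when Slide Ranch heat 1 was. In bulk samples more dividing cells and more RNA per cell cannot be told apart, and with whole animals the same holds for every tissue list.

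The 8 members cover successive steps of the cell cycle, and all 4 Pigeon Point libraries lay above Slide Ranch in 4 of them. That pattern was found in 10 of the 100 tested contigs of the list and in 3.44% of all tested contigs. The members were chosen as higher at Pigeon Point in libraries that are part of this comparison, so their count is a description. CDC45 (SR_contig_38225), which completes the replicative helicase, had 98.3, 98.9, 104 and 111 at Slide Ranch and 159.7, 244, 191 and 242 at Pigeon Point. MCM5 (SR_contig_26730), of the same helicase ring, had 445, 351, 333 and 330.3 against 545, 788, 1018 and 822. The spindle checkpoint protein MAD2A (SR_contig_7367), which holds chromosomes back until they are attached, had 213, 172, 188 and 229 against 282, 362, 623 and 421. Together with MCM3, these 3 had no overlap between the sites.

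In the other 4 members the second Pigeon Point pair was high and at least 1 library of the first pair was not. Cyclin-dependent kinase 1 (SR_contig_113_C3.1), the kinase that drives entry into mitosis, had 369.9, 357, 340.1 and 333 at Slide Ranch, 592 and 632 in Pigeon Point control 2 and heat 2, and 272 and 231 in control 1 and heat 1. Centromere protein L (SR_contig_49473) had 69.4 to 92.6 at Slide Ranch, 169 and 181 in the second pair and 69.7 and 58.8 in the first. Inner centromere protein (SR_contig_2081) and MCM7 (SR_contig_11576) had second-pair values of 1278 and 954, and of 1809 and 2212, above every Slide Ranch library. These 4 were not called in the 8 libraries, with adjusted p from 0.433 to 0.799 in limma. All 7 tested MCM contigs had a positive site difference in the 8 and in the 6 libraries, and 3 of them passed in the 6. Over all tested contigs, 7047 of 14468 had a site difference above 0 in the 8 libraries, and 49.5% in the 6. In 5 of the 8 members all 8 southern libraries were above all 4 of Slide Ranch. The share of all tested contigs with that pattern was not counted, and the 8 were chosen as lower at Slide Ranch. The median log2 difference, south minus Slide Ranch, was 0.479 over the list and -0.056 over all tested contigs.

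**Figure D3:**
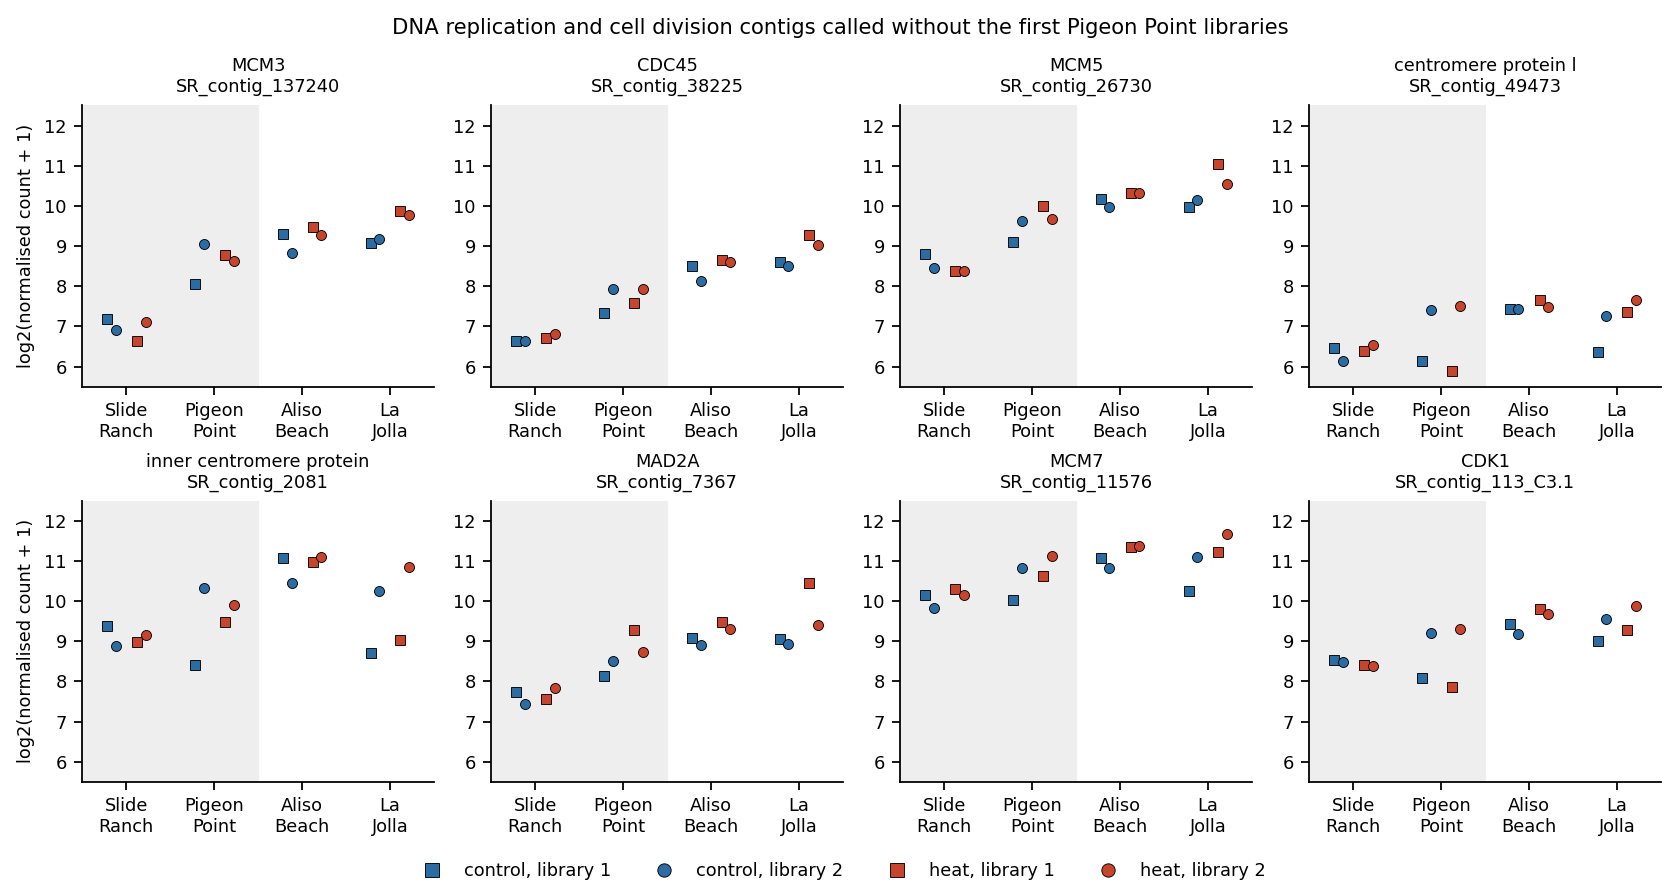
Each panel plots log2(normalised count + 1) of 1 DNA replication or cell division contig in all 16 libraries by site, with control in blue, heat in red, squares for library 1 and circles for library 2. The second Pigeon Point libraries (circles) lie above all 4 Slide Ranch libraries in all 8 panels, and the first ones (squares) do so in 4.

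Of the 18 contigs higher at Slide Ranch, 5 have an informative name: collagen alpha-6, a Toll receptor, calmodulin 3b, a peroxidase and the c2orf29 homolog. A Toll contig (SR_contig_14429), of the receptor family that senses microbes and, in flies, also patterns the embryo, had 111, 158, 149 and 157 at Slide Ranch and 13.1, 23.2, 14.7 and 29.2 at Pigeon Point. The log2 difference was -2.84 ± 0.32 (adjusted p = 0.00993 in limma), and -2.41 ± 0.23 without the first Pigeon Point pair. Aliso Beach lay between the northern sites, at 50.7 to 104, and La Jolla at 8.20 to 45.1 overlapped Pigeon Point. All 6 tested contigs named protein toll were lower at Pigeon Point, and the 5 others, with log2 differences of -0.76 to -0.25, had adjusted p of 0.221 or more. In the list of 223 innate immune contigs, 1 was called higher at Slide Ranch and 0 higher at Pigeon Point, with a median of -0.086. Over all tested contigs 0.124% were called higher at Slide Ranch and 0.242% higher at Pigeon Point.

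Calmodulin 3b (SR_contig_1548), which binds calcium and passes its signal to many enzymes, had 7414, 6988, 8611 and 7749.8 at Slide Ranch and 2014, 971, 2496 and 1617 at Pigeon Point. The log2 difference was -2.19 ± 0.25 (adjusted p = 0.0119 in limma), and every southern library, at 6631 to 16539, was above every Pigeon Point one. Calmodulin copies are highly alike, so this contig may share reads with others of that name, which was not tested. Chorion peroxidase (SR_contig_30702), of a family of haem enzymes that harden the egg coat in insects, had 243, 202, 283 and 308 at Slide Ranch and 63.9, 115, 80.8 and 90.7 at Pigeon Point (-1.57 ± 0.24, adjusted p = 0.0425 in limma and 0.0533 in edgeR). The c2orf29 homolog (SR_contig_2771), named CNOT11 in humans, where it belongs to the complex that shortens mRNA tails, had 332, 306, 337 and 327 against 142, 112, 175 and 141 (-1.20 ± 0.18, adjusted p = 0.0386 in limma). Southern libraries, at 362 to 587, lay above both northern sites for it. The unnamed SR_contig_30684 split the south, with 375, 492, 406 and 410.2 at Slide Ranch, 36.3, 17.7, 44.1 and 9.07 at Pigeon Point, 7.42 to 28.7 at Aliso Beach and 456 to 484 at La Jolla.

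Several of these calls were lost when any 1 of several different libraries was left out. Without any 1 of the 4 Slide Ranch libraries, the Toll, calmodulin 3b, chorion peroxidase, c2orf29, antistasin, ubiquitin C, caspase 9, Tcb2, histone, Nup37, SR_contig_414_C3.1, SR_contig_9590_C3.1 and SR_contig_30684 calls were lost. Their highest adjusted p over all alternatives in limma, edgeR and DESeq2 was 0.0769, 0.0759, 0.235, 0.227, 0.110, 0.0937, 0.226, 0.125, 0.110, 0.221, 0.193, 0.226 and 0.0731, in that order. In addition Pigeon Point control 1 ended the calls of chorion peroxidase, c2orf29, antistasin, caspase 9, Tcb2, histone, Nup37, SR_contig_414_C3.1 and SR_contig_9590_C3.1 when left out. So did Pigeon Point heat 2 for those except antistasin and histone, Pigeon Point heat 1 for chorion peroxidase, histone, Nup37, SR_contig_414_C3.1 and SR_contig_9590_C3.1, and Pigeon Point control 2 for c2orf29, caspase 9 and histone. The direction was the same throughout.

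**Figure D4:**
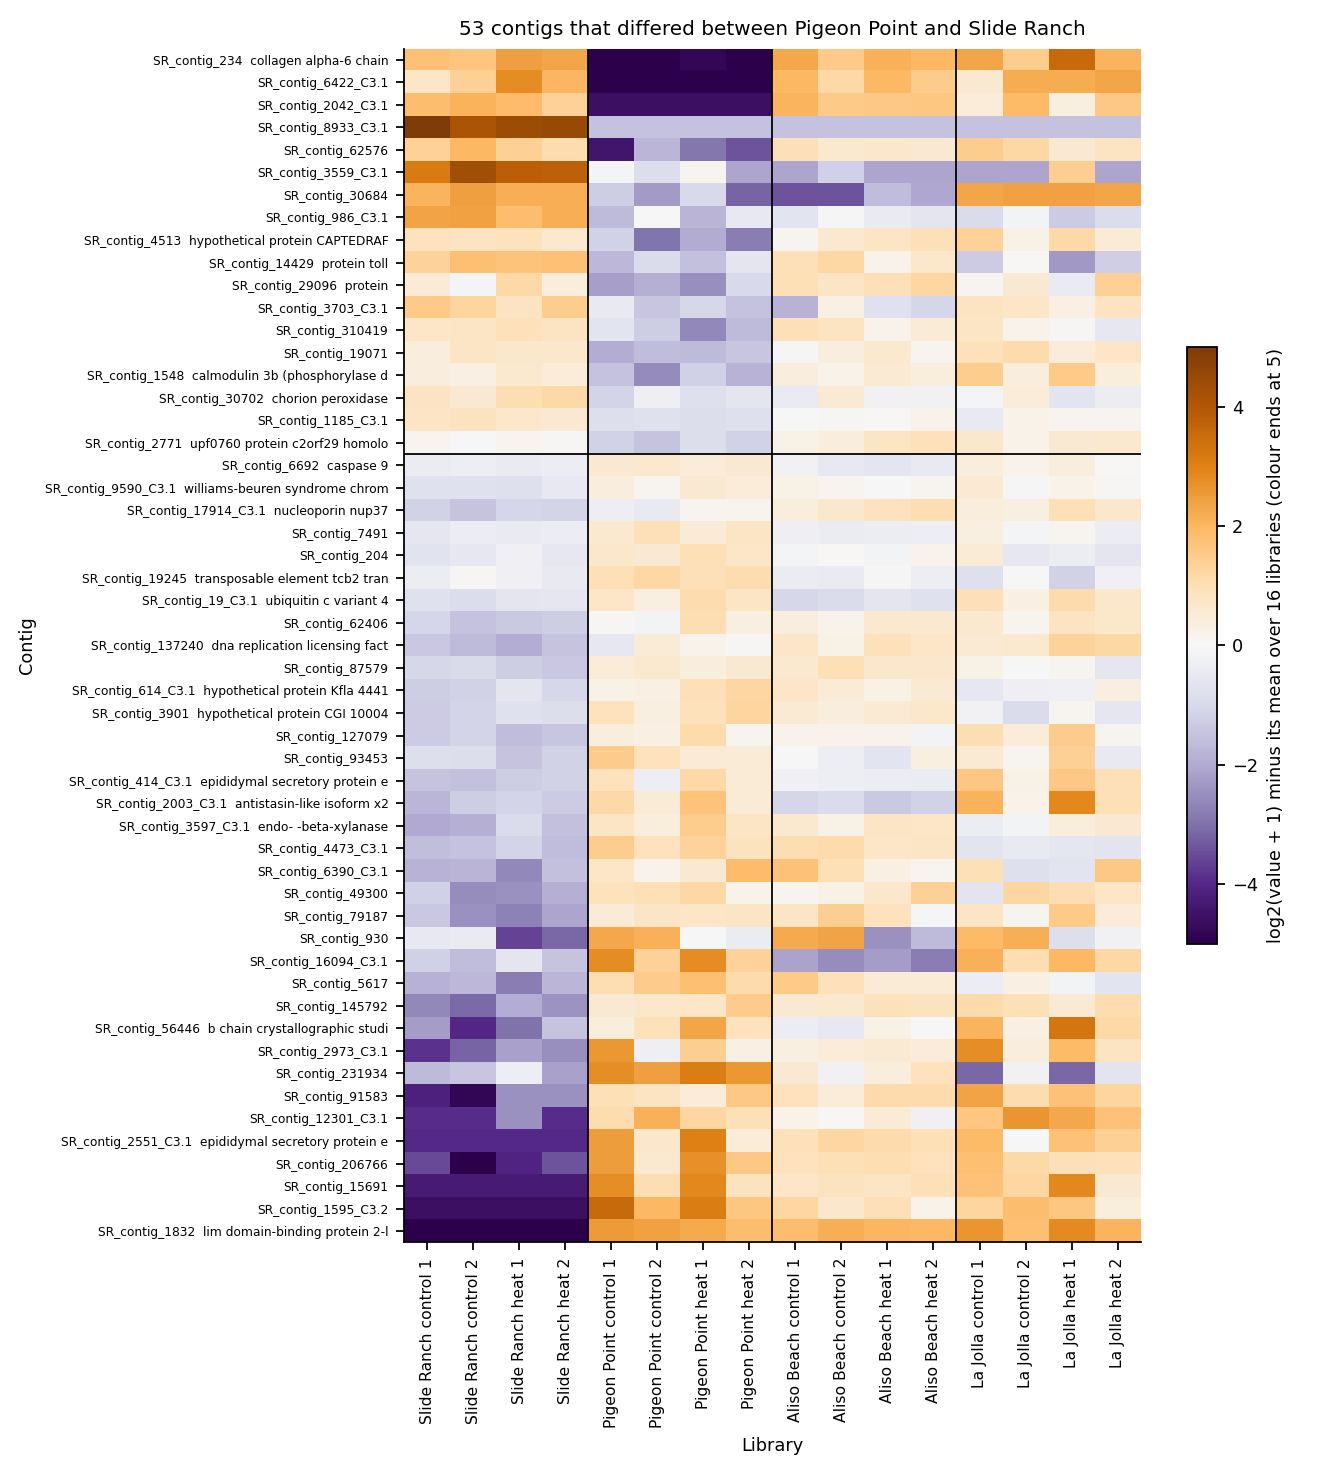
Each row is 1 of the 53 contigs that differed, and each column 1 of the 16 libraries, with colour giving log2(value + 1) minus the contig's mean over the 16 libraries and orange above that mean. The 18 contigs above the line were higher at Slide Ranch and the 35 below it at Pigeon Point, and the southern columns resemble Pigeon Point in most of the lower block.

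The southern libraries were set beside both northern sites for the called contigs. Since these were chosen for a difference between Pigeon Point and Slide Ranch, the counts are a description. The shares of all tested contigs with the same positions were not counted. La Jolla control 1 and heat 1 stood apart in the same measure as the first Pigeon Point pair, with SR_contig_83 at 17.1% and 39.2% of their reads, so the counts are also given without them, an alternative chosen after seeing the data. Of the 35 contigs higher at Pigeon Point, the southern mean was nearer to Pigeon Point for 28 and nearer to Slide Ranch for 7, and for 26 and 9 without these La Jolla libraries. In 24 of them all 4 Slide Ranch libraries, and not all 4 of Pigeon Point, lay outside the range of the 8 southern ones, and in 5, among them caspase 9 and Tcb2 transposase, Pigeon Point did. Of the 18 higher at Slide Ranch, the south was nearer to Slide Ranch for 11 and to Pigeon Point for 7, and for 12 and 6 without them. There Pigeon Point was the one outside in 9, among them collagen alpha-6 and calmodulin 3b, and Slide Ranch in 5, among them Toll and chorion peroxidase. In the 6 libraries the south was nearer to Pigeon Point for 79 of the 99 higher there, or 76 without the La Jolla pair. It was nearer to Slide Ranch for 62 of the 97 higher there, with or without that pair.

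Without Pigeon Point control 1 and heat 1, 196 contigs were called (1.35%), 99 higher at Pigeon Point and 97 higher at Slide Ranch, and edgeR called 206. Pigeon Point then has 1 library per treatment. Leaving out Pigeon Point control 2 lowered the count to 42, Pigeon Point heat 2 to 33 and Slide Ranch heat 1 to 129. Of the 99, 96 did not overlap Slide Ranch in the 6 libraries and 74 not in all 8, and of the 97 the numbers were 93 and 63, where 14.3% and 6.49% of tested contigs did not overlap in 6 and in 8. In the 8 libraries 4 of the 97 had the opposite sign.

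In these 6 libraries 2 of 223 contigs of the innate immune list were called higher at Pigeon Point and 4 higher at Slide Ranch, beside 0.684% and 0.67% of all tested contigs. The contigs described here from the 6 libraries were chosen after their values were seen. Defensin (SR_contig_238417), a small antimicrobial peptide, had 648, 783, 1077 and 897 at Slide Ranch and 2267 and 5639 in Pigeon Point control 2 and heat 2 (2.09 ± 0.20, adjusted p = 0.00102 in limma). In Pigeon Point control 1 and heat 1 it stood at 44220.3 and 42288, so all 4 libraries were above Slide Ranch but the pairs differed widely, and over 8 libraries the adjusted p was 0.194. Thioester-containing protein (SR_contig_100_C3.2), of a complement-like family that binds microbes, went the other way, with 573, 698, 665 and 555 at Slide Ranch and at most 309 at Pigeon Point (-1.32 ± 0.19, adjusted p = 0.0112 in limma in the 6, and 0.058 in the 8). Both contigs thus kept the sites apart in all 8 libraries, in opposite directions. Of the 8 tested contigs with a thioester-containing name, 6 had a site difference below 0 and 2 above in the 8 libraries. Other immune calls of the 6 libraries did not hold in the 8. Goose-type lysozyme 2 went from -0.75 to -0.031 and a peptidoglycan recognition protein from -0.85 to -0.22, and neither was called in the 8.

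Collagen alpha-2 (SR_contig_7094) had 1352, 338, 6171 and 2830.4 at Slide Ranch and 12667, 7331, 13819 and 31506 at Pigeon Point (3.18 ± 0.48, adjusted p = 0.0158 in limma in the 6, and 0.0772 in the 8). Tropomyosin (SR_contig_4488), which controls the grip of myosin on actin in muscle, had 3685, 2627, 4289.6 and 4417 at Slide Ranch and 1722 and 2179.7 in the second Pigeon Point pair (-0.93 ± 0.15, adjusted p = 0.0205 in limma), with 2155 and 3237 in the first. The muscle list had 2 of 53 contigs lower at Pigeon Point in the 6 libraries, both tropomyosins, and 0 in the 8. Over all tested contigs the shares lower at Pigeon Point were 0.67% and 0.124%. The summed counts of the muscle list overlapped between the sites, with 237518 to 329111 at Slide Ranch and 242798 to 350211 at Pigeon Point.

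A catalase contig (SR_contig_8989_C3.1), of the enzyme that breaks down hydrogen peroxide, had 85.3, 81.2, 96.5 and 75.0 at Slide Ranch and 193, 373, 154 and 286 at Pigeon Point (1.94 ± 0.20, adjusted p = 0.00208 in limma in the 6, and 0.122 in the 8). The more abundant catalase contig of the table (SR_contig_3689) did not pass in either comparison. Acetylcholine binding protein 1 (SR_contig_32781), a secreted molluscan protein that takes up the transmitter acetylcholine, had 20.9, 14.0, 15.1 and 16.6 at Slide Ranch and 167, 68.3, 116 and 49.4 at Pigeon Point (1.76 ± 0.33, adjusted p = 0.0404 in limma in the 6). A zinc finger protein contig (SR_contig_29009) had 64.4, 56.1, 54.9 and 49.7 at Slide Ranch and 4.36, 0, 11.0 and 7.06 at Pigeon Point (-4.33 ± 0.63, adjusted p = 0.0122 in limma in the 6). All 3 kept the sites apart in all 8 libraries.

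For 46 cytosolic ribosomal proteins the median log2 difference was 0.44 in the 8 libraries and -0.074 in the 6, and the first Pigeon Point pair exceeded the second by a median of 1.05. Mitochondrial respiration, with 64 contigs, had 0.57 and 0.033, and the proteasome, with 28, had 0.37 and 0.076. Heat shock proteins and co-chaperones, with 42, had 0.28 and -0.10. In these 3 lists the first pair exceeded the second by medians of 1.04, 0.58 and 0.53, and the part of the first pair in the 8-library medians was not tested beyond leaving it out. The summed counts of the mitochondrial list did not overlap between the sites, with 269375 to 309975 at Slide Ranch, 338043 to 357073 in the second Pigeon Point pair and 647338 to 983606 in the first. None of these 4 lists had a call in the 8 libraries, and in the 6 the heat shock list had 1, higher at Pigeon Point. Over all tested contigs 0.366% were called in the 8 libraries and 1.35% in the 6.

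**Figure D5:**
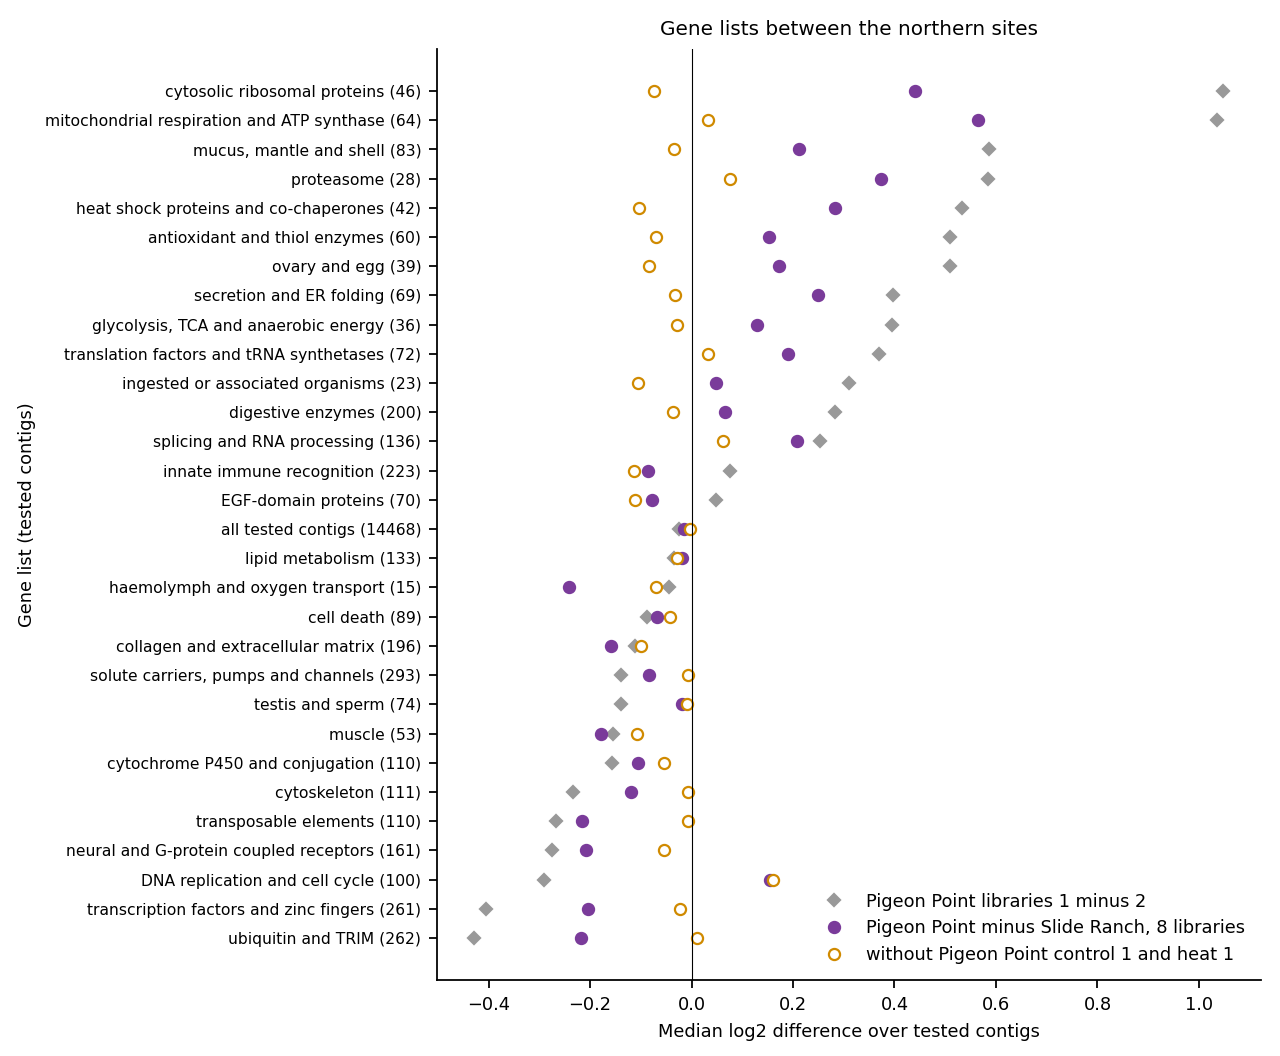
For each gene list, with its number of tested contigs, purple points give the median log2 difference Pigeon Point minus Slide Ranch in 8 libraries, open circles the same without Pigeon Point control 1 and heat 1, and grey diamonds the median of the first minus the second Pigeon Point pair. In the 6 libraries the medians lie between -0.11 and 0.16, with DNA replication and cell cycle at the upper end.

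Tissue lists of the whole animal gave few calls. In the 8 libraries 0 contigs were called among 53 of muscle, 39 of ovary and egg, 74 of testis and sperm, 83 of mucus, mantle and shell, 15 of haemolymph and oxygen transport, 161 of neural receptors and 23 of ingested or associated organisms. Over all tested contigs 0.366% were called, a share at which lists of this size hold few calls. At an unadjusted p under 0.05 limma had 6, 2, 3, 14, 2, 9 and 5 of the list members, in that order. Among all 14468 tested contigs 1527 reached it. The median log2 differences were -0.18, 0.17, -0.018, 0.21, -0.24, -0.21 and 0.049 in the 8 libraries and -0.11, -0.084, -0.0088, -0.035, -0.069, -0.054 and -0.11 in the 6. Among the summed counts of the tissue lists, those of haemolymph did not overlap, with 56390 to 70074 at Slide Ranch and 36486 to 45414 at Pigeon Point. Hemocyanin isoform 1 (SR_contig_262), the copper protein that carries oxygen in molluscan blood and the largest member, had 42020.2, 34759, 47843 and 36654 at Slide Ranch and 22968, 20637, 29182 and 24951 at Pigeon Point. Its 8 values did not overlap, but it was not called (-0.72 ± 0.18, adjusted p = 0.23, and -0.82 ± 0.17, adjusted p = 0.0662, in the 6, both limma). It was chosen after its values were seen. The other hemocyanin contig (SR_contig_4763_C3.1) overlapped between the sites, with 8363 to 12089 at Slide Ranch and 4227 to 10232 at Pigeon Point. Its log2 difference was -0.66 ± 0.28 in the 8 libraries (adjusted p = 0.433 in limma) and -0.18 ± 0.16 in the 6. The part of tissue make-up in the calls above was not tested.

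Whether the sites already differed before heating was asked in the control animals alone, in a fit of 4 group means. There 5 contigs were called by limma (0.0346%), 2 higher at Pigeon Point (0.0138%) and 3 at Slide Ranch (0.0207%), namely SR_contig_1832, SR_contig_91583, SR_contig_234, SR_contig_6422_C3.1 and SR_contig_2042_C3.1. In heated animals limma called 3 (0.0207%), 1 higher at Pigeon Point (0.00691%) and 2 at Slide Ranch (0.0138%). All 3, SR_contig_1832, SR_contig_234 and SR_contig_6422_C3.1, were among the 5 of the controls. Those were the LIM domain-binding protein, collagen alpha-6 and an unnamed contig, and both comparisons share 1 estimate of the spread. edgeR called 0 in each and DESeq2 86 and 104, with 429 and 787 at an unadjusted p under 0.05 in limma. Leaving out either Pigeon Point control library gave 0 for the controls. Leaving out Slide Ranch control 1 or 2 gave 1 each, Slide Ranch heat 1 or 2 gave 2 each, Pigeon Point heat 1 gave 8 and Pigeon Point heat 2 gave 10. For heated animals the count was 0 without Slide Ranch heat 1 or heat 2, and 1 without Slide Ranch control 1, Slide Ranch control 2 or Pigeon Point heat 2.

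The main chaperones were higher in heated animals at both sites. HSP70 (SR_contig_18771_C3.1), which holds and refolds damaged proteins, went from 141 and 147 in the controls to 432797 and 460506 in heated animals at Slide Ranch, and from 412 and 111 to 570418 and 360565 at Pigeon Point. The log2 difference, heat minus control, was 11.59 at Slide Ranch and 11.04 at Pigeon Point. A second HSP70 contig (SR_contig_525), HSP90 (SR_contig_806_C3.1) and a small heat shock protein (SR_contig_1049_C3.1) were higher by 2.28, 4.26 and 4.49 on that scale at Slide Ranch and by 2.09, 3.76 and 4.40 at Pigeon Point. The site difference of these 4 contigs had adjusted p of 0.51 to 0.841 in limma.

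A difference in the heat response between the sites was called for 0 contigs in limma, with 90 at an unadjusted p under 0.05, for 0 in edgeR and for 5 in DESeq2. Without Pigeon Point heat 2 limma called 1. The smallest p belonged to a contig named deleted in malignant brain tumors 1 (SR_contig_378144), with 0, 0, 22.1 and 96.5 at Slide Ranch and 182, 122, 0 and 0 at Pigeon Point. It had reads only in heated animals at one northern site and only in controls at the other (limma adjusted p = 0.135). In the south it differed between libraries of the same group. Aliso Beach heat 1 and 2 had 492 and 0, La Jolla heat 1 and 2 had 371 and 0, and the southern controls had 0 to 13.4. The next, the unnamed SR_contig_5262_C3.1, had 63.5, 199, 139.9 and 303 at Slide Ranch and 21.8, 74.4, 0 and 0 at Pigeon Point (unadjusted p = 7.41e-04, adjusted p = 1 in limma). Neither passed the threshold.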

How the data were processed

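The table deposited by the authors holds normalised read counts, a signal unit: reads per contig divided by 1 size factor per library. CASAVA and DESeq were used, per the submitters' processing notes, which give no version. The aligner, the assembler and the build were not given in the sources used here. Dividing by the smallest step turned 100% of values into whole reads, within 0.01 read, in each library, and these recovered reads served the count models. All 16 columns were matched by title, and 0 were left unused.

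Whether libraries were deposited more than once was checked within each group, and the chi-square per degree of freedom lay between 28.9 and 418. Contigs with a mean under 10 over the 8 northern libraries (1435) were left out. Using limma 3.58.1 in R 4.3.3, with a trend of variance on level, log2(value + 1) was modelled over these 8 libraries with treatment and site as terms, or with 4 group means for controls, heated animals and their difference. P-values were adjusted by Benjamini-Hochberg over 14468 contigs, with 0.05 as threshold. Fold changes on the log2(value + 1) scale understate changes of low contigs. Folds against a site at 0 use a floor of 3 reads over its 4 libraries. The 6-library comparison leaves out Pigeon Point control 1 and heat 1, where each lone Pigeon Point library borrows its spread from the other groups.

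The 29 lists were set by patterns of the deposited names. The members and lists were chosen with earlier results of these data known. Named were called contigs with a mean of at least 50, an informative name and no overlap (up to 10 in each direction), the same with at least 20 in every library (up to 6), up to 2 called per list, the 2 largest unnamed in each direction, the 2 smallest interaction p, named contigs silent at one site, and the most abundant chaperones. Others are marked as chosen after their values were seen. Alternatives were pseudocounts 0.5 and 5, no filter, a mean of at least 50, TMM scaling, edgeR 4.0.16 and DESeq2 1.42.0 on recovered reads, robust shrinkage, all 16 libraries, a replicate block, a term for the first Pigeon Point pair, and leaving out each library. The steps were tested on simulated data. Figures were drawn with matplotlib 3.10.9.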

Additional observations from a re-analysis of the deposited data

Results flagged for a closer look

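One result stood out by its values within a group. For Williams-Beuren syndrome chromosomal region 27 (SR_contig_9590_C3.1) at Slide Ranch, heat 2 had a normalised count of 494, far from the other 3 libraries at 418, 421 and 415. Its gap to the nearest of them passed Dixon's 95% critical value for 4 samples. In all, 42 groups of 4 values were examined, and chance alone marks about 1 in 20 such groups. All 4 Pigeon Point libraries, at 738 to 1023, lay above it.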

How the results depend on the processing

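All 53 contigs had the same direction under every alternative run, and 12 were called in every one that could test them. Against 53 calls in the site comparison there were 448 in DESeq2, 196 without Pigeon Point control 1 and heat 1, 136 with a term for them, 102 in the fit of all 16 libraries and 14 to 64 with 1 library left out. The 6-library count of 196 ranged from 33 to 183 with 1 library left out. The 5 calls in controls became 1 with a pseudocount of 0.5, 8 with no filter, 1 at a mean of at least 50, 0 in edgeR, 86 in DESeq2, 30 without the first Pigeon Point pair, 60 with a term for it, 20 with 16 libraries, 1 with robust shrinkage, 0 with the 4 control libraries alone and 0 to 10 with 1 left out. For the 3 in heated animals the values were 6 with no filter, 1 at a mean of at least 50, 0 in edgeR, 104 in DESeq2, 43 without the pair, 58 with a term, 34 with 16 libraries, 0 with the 4 heated libraries alone and 0 to 3 with 1 left out. The interaction count of 0 became 5 in DESeq2 and was 0 to 1 with 1 left out. The 8 cell cycle members became 0 to 7. Without the pair, list medians were -0.069 for antioxidant enzymes, -0.074 for ribosomal proteins, -0.036 for digestive enzymes, -0.029 for glycolysis, -0.069 for haemolymph, -0.10 for heat shock proteins, -0.11 for ingested organisms, 0.033 for mitochondrial respiration, -0.054 for neural receptors, 0.076 for the proteasome, -0.034 for secretion, 0.032 for translation, -0.0070 for transposable elements and 0.010 for ubiquitin and TRIM. Deviations of same-numbered libraries correlated at 0.70 between Pigeon Point control and heat, and at -0.061 to 0.13 for the 5 other pairs of groups, so the numbers were taken as pairing libraries within Pigeon Point at most, and the block was kept as an alternative. With the replicate block there were 89 calls in the 8 libraries, 112 in the 6 and 4 cell cycle members. The cause of these shifts was not tested. TMM factors differed from the deposited ones by at most 0.044 on the log2 scale. Depth limits the silent contigs: 0 reads in 4 libraries allows up to 3.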
